A study of Homo sapiens with 9 samples.

Results

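The genes described here are 38 human genes of the ATF4 amino acid response, measured in HCT 116 cells, a human colorectal cancer line, after transfection with klotho vectors. They are 21 genes of amino acid synthesis, amino acid transport and tRNA export with other known ATF4 targets, and 17 cytosolic aminoacyl-tRNA synthetases. They were chosen by name, 1 probe set a gene (the brightest over all arrays), and all 38 were found among the 17958 genes analysed. The first group received KL-FL, a vector for the full-length form of mouse klotho, which spans the membrane and serves FGF23 signalling as a co-receptor. The second received a vector carrying KL1, a subdomain of mouse klotho, and the controls received pcDNA3 with no insert. There were 3 arrays a group, and RNA was taken 24 hours after transfection. The cells of all groups were cultured in the same medium with added L-glutamine, were below passage 40 and were transfected with JetPEI or polyethylenimine, with no record of the reagent for each array. Nothing in the labels ties the replicates to separate cultures. The p-values therefore reflect only how these arrays vary, in part perhaps for technical reasons. In transfected bulk cells a change in a few cells and a smaller change in all of them cannot be told apart.

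ATF4 is a transcription factor made when the translation factor eIF2 is phosphorylated, by GCN2 when amino acids run short or by PERK when the endoplasmic reticulum holds misfolded protein. It raises the genes that make and import amino acids and those that load amino acids on tRNA. It also drives DDIT3, which encodes the transcription factor CHOP. ATF4 binds as a dimer, often with a C/EBP protein, at a composite element known as the CARE.

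The CARE core was present in the promoter windows of many of these genes. The windows are shown because they mark which members have a match to its letters near the start. The core searched was TGATGNAA on either strand, which reads TTNCATCA when it lies on the other strand. RefSeq promoter windows (GRCh38.p14, 250 bases before to 50 after each annotated start) were matched for 30 of the 38 members, some with several starts. PSPH, SHMT2, PYCR1, SLC7A11, EIF4EBP1, LARS1, VARS1 and YARS1 had none and were not analysed here for sequence. The core was found in 13 of the 30 members, or 43.3%, against 3.57% of all 13864 genes with a window. By group it was in 7 of 14 synthetases and 6 of 16 amino acid genes. Counted by window, to allow for genes with several starts, it was in 31.0% of the 42 member windows and 2.65% of all 19637. The form TGATGCAA, counted within the same matches, was in 9 of the 30 members and in 0.952% of all genes. A match describes these letters and does not show binding. The members were listed as genes of the ATF4 response, so their share is not an independent result about them. Each line gives 30 bases in the direction of the gene, with the core in capitals.
ASNS, chr7:97872458-97872487, minus strand: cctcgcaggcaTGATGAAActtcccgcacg
SLC1A4, chr2:64989381-64989410, plus strand: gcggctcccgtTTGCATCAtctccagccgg
CEBPG, chr19:33374060-33374089, plus strand: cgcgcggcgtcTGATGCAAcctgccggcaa
AARS1, chr16:70289675-70289704, minus strand: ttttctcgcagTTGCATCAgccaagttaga
CARS1, chr11:3057407-3057436, minus strand: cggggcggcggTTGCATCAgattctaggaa
IARS1, chr9:92293692-92293721, minus strand: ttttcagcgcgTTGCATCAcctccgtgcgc
MARS1, chr12:57488053-57488082, plus strand: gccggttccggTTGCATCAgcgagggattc
NARS1, chr18:57621804-57621833, minus strand: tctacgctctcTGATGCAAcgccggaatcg
TARS1, chr5:33440956-33440985, plus strand: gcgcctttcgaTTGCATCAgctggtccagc

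The ASNS core began at base -68 from the start and is the known nutrient-sensing element of that gene. In AARS1 the core began at -187, in CEBPG at -42, in IARS1 at -13, in MARS1 at -4 and in CARS1 at -2. SLC7A1, SLC3A2, SLC1A5 and GARS1 also held a match. No match was found in the windows of DDIT3, XPOT or PSAT1, which says only that these letters are not in those windows.

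All values below are log2 expression values as deposited, and they ran from 1.79 to 12.4 over the table. The array medians over genes lay between 5.38 and 5.42. KL-FL replicate 3 stood apart, its median correlation with the remaining arrays being 0.9970. KL1 replicate 2 came next at 0.9979, and the others had 0.9986 to 0.9989. The epithelial markers EPCAM, KRT8, KRT18 and KRT19 averaged between 9.63 and 10.7, and 6 of 8 colorectal epithelial markers lay above the median gene, while VIL1 and CDH17 lay below it at 3.77 and 2.76. Of the markers of other cell types, 2 of 13 lay above the median gene, CD68 and COL1A1. The 5 fibroblast markers summed to 20.44 to 20.68 with KL-FL and 20.46 to 20.52 with KL1, against 20.23 to 20.34 in control. All 5 were higher in each comparison, with DCN lowest at 2.55. Of all genes, 57.2% were higher with KL-FL and 52.0% with KL1. The leukocyte sums overlapped with control for both vectors, as did the epithelial ones. The endothelial sums overlapped for KL-FL and met at 13.7, as rounded, for KL1. Among the fibroblast markers PDGFRB differed by 0.084 with KL-FL and 0.083 with KL1 (adjusted p = 0.688 and 0.927 in limma). The part of these markers in the results below was not tested. The arrays hold no level at which a gene is known to be absent.

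With full-length klotho, 0 of the 38 members passed limma's test over all genes at an adjusted p of 0.05, where 0.00557% of all genes did (1 gene, DDIT3). The members' adjusted p ran from 0.55 to 0.993. The largest positive differences belonged to SLC7A11, the cystine transporter, at 0.23 (SE 0.072) and to XPOT, the exporter of tRNA from the nucleus, at 0.18 (SE 0.040). The largest negative ones belonged to SHMT2 and PHGDH, at -0.22 (SE 0.11) and -0.20 (SE 0.10), and these rested on KL-FL replicate 3. The 38 members had a median difference of 0.018, with 23 higher and 15 lower, against 0.0099 over all genes. At an unadjusted p under 0.05, 3 members were higher (SLC7A11, XPOT and LARS1), or 3 of 38 against 4.88% of all genes, and 0 were lower, against 2.28% of all genes. XPOT and LARS1 had no overlap with control on the higher side, where 7.13% of all genes had none. SHMT2 had none on the lower side, where 3.25% of all genes had none.

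With KL1, 0 of the 38 members passed the same limma test either, where again 0.00557% of all genes did (1 gene, DDIT3), and adjusted p ran from 0.927 to 1.0. The largest positive differences were those of SLC7A11 at 0.15 (SE 0.072), XPOT at 0.15 (SE 0.040), WARS1 at 0.14 (SE 0.067) and AARS1 at 0.13 (SE 0.042). The largest negative one was that of PSPH, the last enzyme of serine synthesis, at -0.17 (SE 0.096). The median was 0.029, with 25 higher and 13 lower, against 0.0026 over all genes. At an unadjusted p under 0.05, 2 members were higher (XPOT and AARS1), against 2.99% of all genes, and 0 were lower, against 2.11%. SLC7A11 and XPOT had no overlap with control on the higher side, where 5.13% of all genes had none. PSPH and HARS1 had none on the lower side, where 4.34% had none. Both comparisons use the same 3 control arrays, so a control array that reads low raises both.

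**Figure D1:**
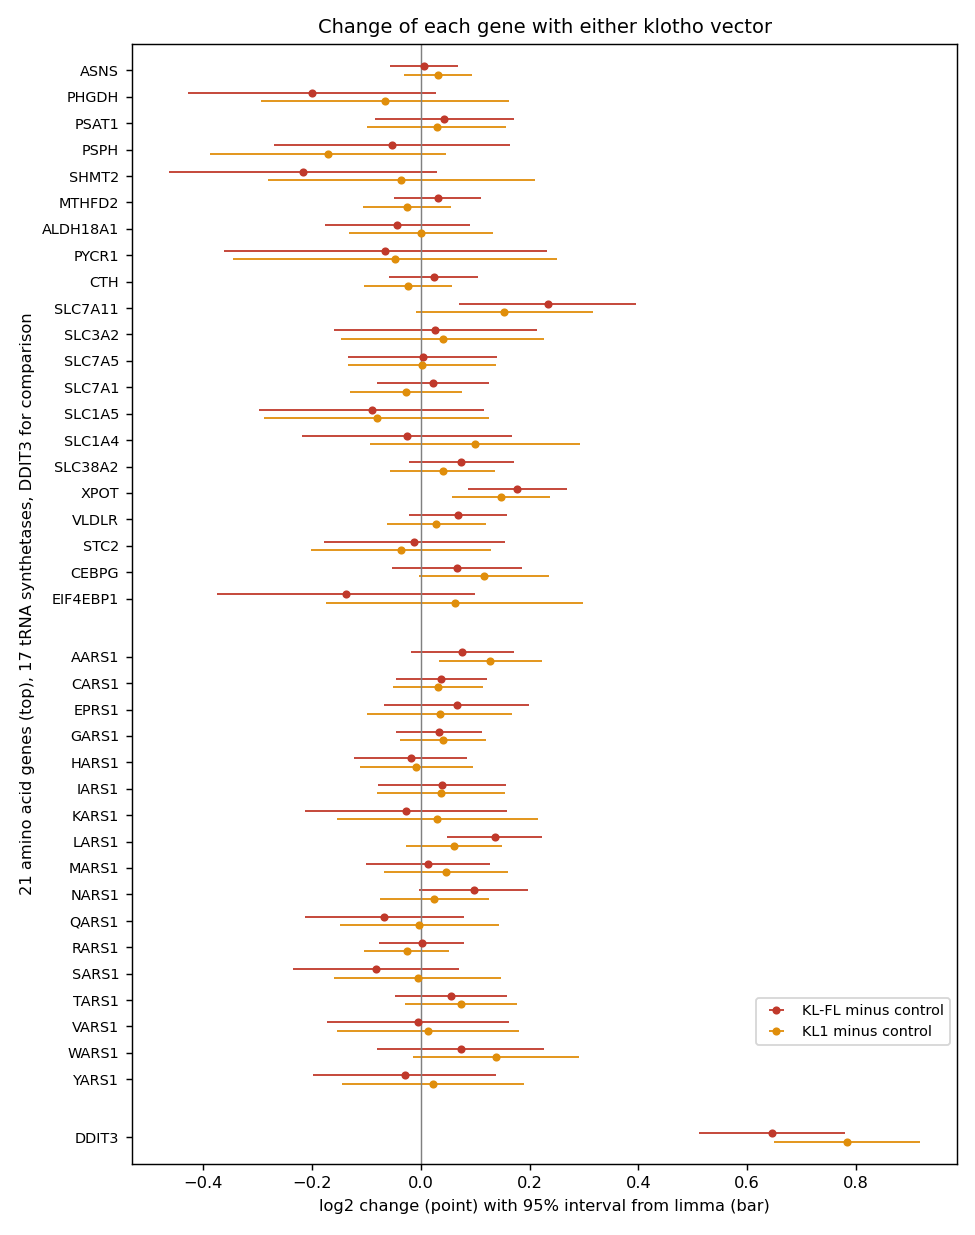
Log2 change of each member and of DDIT3, for KL-FL minus control (red) and KL1 minus control (orange), with points for the estimate and bars for the 95% interval from limma. The upper ends of all 38 members' bars lie left of the lower ends of the DDIT3 bars in each comparison. DDIT3 is the gene with the largest positive change of all genes in each, so most other genes would be likely to lie left of it too. The share of all genes that do was not counted.

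The intervals show how large a change these arrays leave room for. DDIT3, on the same arrays, had 7.27, 7.48 and 7.23 with KL-FL and 7.45, 7.47 and 7.48 with KL1, against 6.67, 6.66 and 6.72 in control, and its 95% intervals were 0.51 to 0.78 for KL-FL and 0.65 to 0.92 for KL1. All 38 members had an upper 95% limit below the lower limit of DDIT3 in each comparison, with the highest upper limit at 0.40 for KL-FL and 0.32 for KL1, both for SLC7A11. DDIT3 had the largest positive difference of all genes in each comparison, so most other genes would be likely to lie below it too. The share of all genes below it was not counted, so the count says little about the members. All 38 intervals lay within a 1.5-fold change either way in each comparison. The share of all genes within that limit was not counted either, so this count too says little about the members. The intervals are for each gene alone, without adjustment for the number of genes. ATF4 itself had 9.12, 9.13 and 8.96 with KL-FL and 9.12, 9.16 and 9.08 with KL1, against 9.17, 9.13 and 9.19 in control. All KL-FL arrays lay below all controls, where 3.25% of all genes had no overlap on that side. KL-FL replicate 2 lay just below the lowest control (9.127 against 9.134), and replicate 3 furthest below. The differences were -0.098 (adjusted p = 0.702 in limma) for KL-FL and -0.045 (adjusted p = 0.935) for KL1. These are RNA values, and ATF4 is controlled largely through its translation.

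ASNS, which makes asparagine and is among the best known ATF4 targets, had nearly the same value on every array. It had 7.33, 7.33 and 7.31 with KL-FL and 7.34, 7.38 and 7.33 with KL1, against 7.32, 7.33 and 7.30 in control. The whole range over 9 arrays was 0.074 on the log2 scale, the smallest of the 38 members. The interval for KL-FL minus control ran from -0.056 to 0.068, or 0.962-fold to 1.05-fold, and that for KL1 from -0.030 to 0.094.

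Among the enzymes of serine synthesis, PHGDH catalyses the first step, PSAT1 the second and PSPH the last. PSAT1 had 8.64, 8.67 and 8.64 with KL-FL and 8.74, 8.56 and 8.61 with KL1, against 8.71, 8.54 and 8.57 in control. The groups overlapped, with KL1 replicate 1 the highest array of all, and the differences were 0.043 (SE 0.056) and 0.029 (SE 0.056). PHGDH had 8.69, 8.70 and 8.35 with KL-FL and 8.80, 8.70 and 8.64 with KL1, against 8.69, 8.93 and 8.72 in control. KL-FL replicate 3 was the low value and control replicate 2 the high one, and the KL-FL difference of -0.20 became -0.085 without KL-FL replicate 3. PSPH had 7.14, 7.24 and 6.84 with KL-FL and 6.82, 6.98 and 7.05 with KL1, against 7.11, 7.11 and 7.15 in control. All 3 KL1 arrays lay below control, with a difference of -0.17, but a second probe set of PSPH gave 0.032 for KL1 minus control, so its probe sets disagree.

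SHMT2 and MTHFD2 belong to the mitochondrial one-carbon pathway, which takes its carbon from serine. SHMT2 had 9.67, 9.67 and 9.25 with KL-FL and 9.67, 9.79 and 9.67 with KL1, against 9.67, 9.86 and 9.70 in control. KL-FL replicates 1 and 2 lay just below the lowest control (9.667 against 9.672), and replicate 3 far below, so the separation of the groups was narrow. Without KL-FL replicate 3 the SHMT2 difference was -0.076. MTHFD2 averaged 9.82 ± 0.044 with KL-FL and 9.76 ± 0.027 with KL1, against 9.79 ± 0.039 in control (SD, n = 3 each). ALDH18A1 and PYCR1, which make proline from glutamate, averaged 7.93 ± 0.096 and 8.80 ± 0.19 with KL-FL and 7.97 ± 0.070 and 8.82 ± 0.26 with KL1, against 7.97 ± 0.067 and 8.87 ± 0.086 in control (SD, n = 3 each). CTH, which makes cysteine from cystathionine, averaged 5.81 ± 0.036 with KL-FL and 5.76 ± 0.017 with KL1, against 5.79 ± 0.054 in control (SD, n = 3 each). These 4 genes overlapped with control in each comparison.

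Of the 7 transporters, SLC7A11, the light chain of the cystine-glutamate exchanger, differed most from control. It had 8.75, 8.52 and 8.72 with KL-FL and 8.59, 8.55 and 8.61 with KL1, against 8.55, 8.31 and 8.43 in control. All KL1 arrays lay above all controls, by a small margin (8.554 against 8.547), while KL-FL replicate 2 lay inside the control range. The difference for KL-FL was 0.23, or 1.18-fold (limma adjusted p = 0.682), and that for KL1 was 0.15, or 1.11-fold (adjusted p = 0.927). Leaving out 1 array at a time gave 0.17 to 0.31 for KL-FL and 0.095 to 0.21 for KL1. The controls themselves spread from 8.31 to 8.55. Its partner SLC3A2, the shared heavy chain, averaged 9.67 ± 0.10 with KL-FL and 9.68 ± 0.15 with KL1, against 9.64 ± 0.086 in control (SD, n = 3 each).

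SLC7A5, the leucine transporter LAT1, averaged 9.82 ± 0.095 with KL-FL and 9.82 ± 0.090 with KL1, against 9.82 ± 0.055 in control (SD, n = 3 each). SLC7A1, which carries cationic amino acids, averaged 8.12 ± 0.068 with KL-FL and 8.07 ± 0.020 with KL1, against 8.09 ± 0.068 in control. SLC38A2, the system A transporter SNAT2 of small neutral amino acids, averaged 10.8 ± 0.061 with KL-FL and 10.8 ± 0.047 with KL1, against 10.7 ± 0.045 in control. These 3 transporters overlapped with control in each comparison. The neutral amino acid exchanger SLC1A5 averaged 8.23 ± 0.17 with KL-FL and 8.24 ± 0.047 with KL1, against 8.32 ± 0.15 in control (SD, n = 3 each). Its relative SLC1A4, among the 2 members below the median gene, averaged 4.53 ± 0.14 with KL-FL and 4.66 ± 0.11 with KL1, against 4.56 ± 0.11 in control (SD, n = 3 each).

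XPOT, exportin-t, carries mature tRNA out of the nucleus. It had 8.45, 8.48 and 8.39 with KL-FL and 8.48, 8.40 and 8.36 with KL1, against 8.29, 8.24 and 8.26 in control. All 6 klotho arrays lay above all 3 controls, and XPOT was the 1 member of 38 for which this held, where 2.2% of all genes showed it. The difference was 0.18 for KL-FL, or 1.13-fold (95% interval 0.087 to 0.27, limma adjusted p = 0.550), and 0.15 for KL1, or 1.11-fold (95% interval 0.057 to 0.24, adjusted p = 0.927). Leaving out 1 array at a time kept it between 0.16 and 0.20 for KL-FL and between 0.11 and 0.17 for KL1.

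The other ATF4 targets were VLDLR, a lipoprotein receptor, STC2, a secreted glycoprotein, CEBPG, a C/EBP partner of ATF4, and EIF4EBP1, a repressor of cap-dependent translation. CEBPG had 6.63, 6.69 and 6.62 with KL-FL and 6.72, 6.75 and 6.63 with KL1, against 6.67, 6.601 and 6.48 in control. Its groups overlapped, with differences of 0.066 and 0.12 (SE 0.053 for each). These were 0.013 and 0.063 without control replicate 3, and 0.11 and 0.16 without control replicate 1. EIF4EBP1 had 7.52, 7.60 and 7.12 with KL-FL and 7.63, 7.60 and 7.61 with KL1, against 7.49, 7.57 and 7.61 in control, so that its KL-FL difference of -0.14 came from replicate 3 and was 0.0078 without it. VLDLR, below the median gene, averaged 3.56 ± 0.078 with KL-FL and 3.52 ± 0.0087 with KL1, against 3.49 ± 0.020 in control, and STC2 averaged 6.62 ± 0.0195 with KL-FL and 6.59 ± 0.11 with KL1, against 6.63 ± 0.14 in control (SD, n = 3 each).

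**Figure D2:**
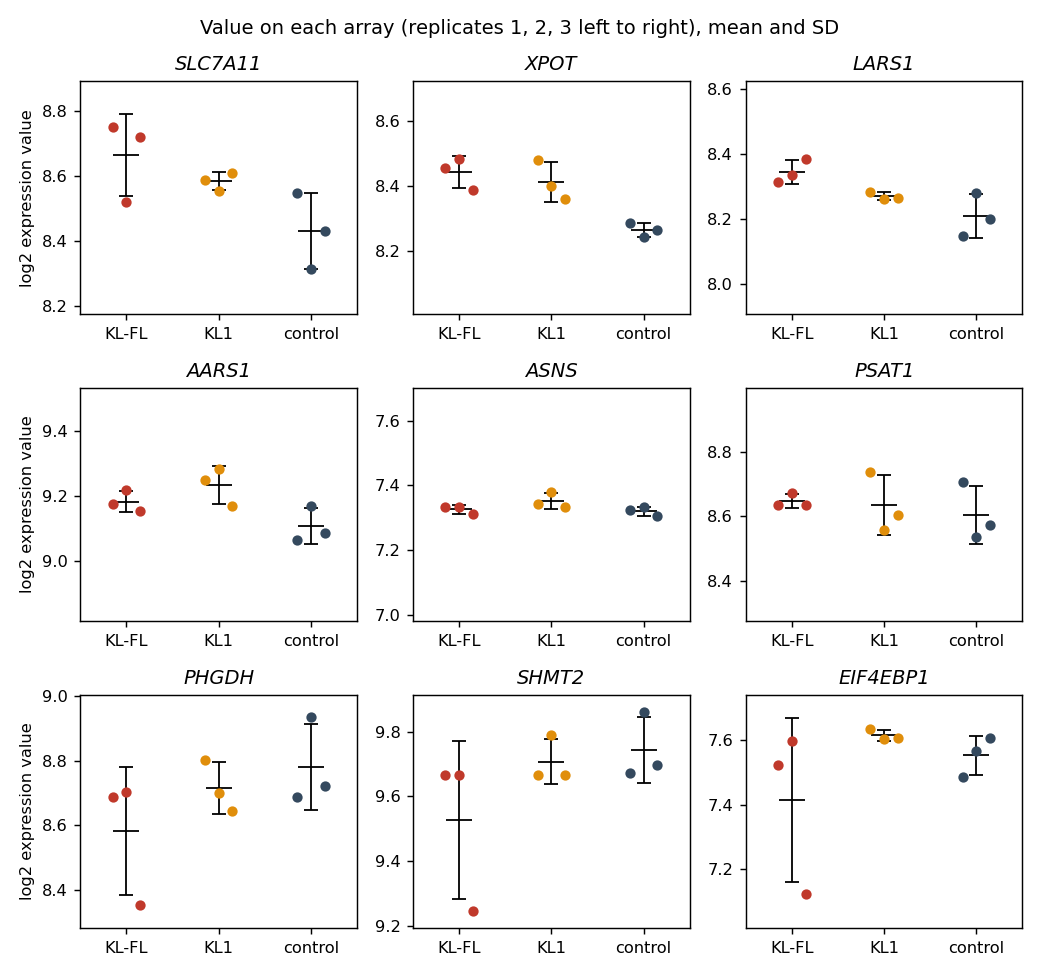
Log2 expression value on each array (points, replicates 1 to 3 from left to right in each group) with the group mean and SD (black), for 9 members with KL-FL, KL1 and control; every panel spans the same height. XPOT lies above control on all 6 klotho arrays, ASNS is level across the 9 arrays, and KL-FL replicate 3 is the low point for PHGDH, SHMT2 and EIF4EBP1.

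The 17 aminoacyl-tRNA synthetases, which join each amino acid to its tRNA, lay in a narrower range than the amino acid genes. Their differences ran from -0.083 to 0.14 for KL-FL and from -0.026 to 0.14 for KL1, against -0.22 to 0.23 and -0.17 to 0.15 for the 21 amino acid genes. The synthetases had a median of 0.033 for KL-FL with 11 of 17 higher, and of 0.031 for KL1 with 13 of 17 higher. Without KL-FL replicate 2 the KL-FL median of the synthetases was 0.0015 with 9 of 17 higher, without control replicate 3 it was 0.018, and without KL-FL replicate 3 it was 0.051. Without KL1 replicate 2 the KL1 median was 0.0058 with 9 of 17 higher, without control replicate 3 it was 0.017, and without KL1 replicate 3 it was 0.0635. The amino acid genes had medians of 0.0060 and 0.0023, with 12 of 21 higher in each comparison. Over all genes 57.2% were higher with KL-FL and 52.0% with KL1. No test was run on these medians, since the members were chosen with earlier results of these data known.

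LARS1, the leucyl-tRNA synthetase, also known as a leucine sensor of the mTORC1 pathway, had 8.31, 8.34 and 8.38 with KL-FL and 8.28, 8.26 and 8.26 with KL1, against 8.15, 8.28 and 8.20 in control. All KL-FL arrays lay above all controls, while KL1 overlapped with control. The difference was 0.14 (SE 0.039, limma adjusted p = 0.635) for KL-FL and 0.061 (SE 0.039, adjusted p = 0.927) for KL1. AARS1, the alanyl-tRNA synthetase, had 9.18, 9.22 and 9.15 with KL-FL and 9.25, 9.28 and 9.17 with KL1, against 9.07, 9.17 and 9.08 in control. Its lowest KL1 array and its highest control had the same deposited value, and the differences were 0.076 (SE 0.042, adjusted p = 0.712) for KL-FL and 0.13 (adjusted p = 0.927) for KL1.

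WARS1, the tryptophanyl-tRNA synthetase, which is also induced by interferon, had 8.32, 8.44 and 8.20 with KL-FL and 8.49, 8.32 and 8.34 with KL1, against 8.20, 8.32 and 8.22 in control, and both klotho groups overlapped with control. NARS1, the asparaginyl-tRNA synthetase, had 9.503, 9.45 and 9.39 with KL-FL and 9.39, 9.35 and 9.39 with KL1, against 9.43, 9.31 and 9.31 in control. Its difference was 0.098 (SE 0.044) for KL-FL and 0.025 for KL1, with overlap in each. HARS1 had 9.01, 9.05 and 8.86 with KL-FL, 8.98 on all 3 KL1 arrays, and 8.99, 8.99 and 9.00 in control. The KL1 arrays of HARS1 held an identical deposited value and lay below control by 0.0087 on average, so the separation there was narrower than the spread within KL-FL.

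The other synthetases all overlapped with control in each comparison. They were CARS1, EPRS1, GARS1, IARS1, KARS1, MARS1, QARS1, RARS1, SARS1, TARS1, VARS1 and YARS1. EPRS1, the bifunctional glutamyl-prolyl enzyme, averaged 8.87 ± 0.060 with KL-FL and 8.84 ± 0.11 with KL1, against 8.81 ± 0.055 in control (SD, n = 3 each). GARS1 averaged 9.74 ± 0.028 with KL-FL and 9.75 ± 0.036 with KL1, against 9.71 ± 0.043 in control. TARS1 averaged 8.90 ± 0.066 with KL-FL and 8.91 ± 0.036 with KL1, against 8.84 ± 0.063 in control. RARS1 averaged 8.46 ± 0.057 with KL-FL and 8.43 ± 0.021 with KL1, against 8.46 ± 0.014 in control, and its range of 0.11 over 9 arrays was the narrowest of the synthetases. The widest was that of VARS1, at 0.32, where KL-FL replicate 3 was lowest and KL-FL replicate 2 highest.

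**Figure D3:**
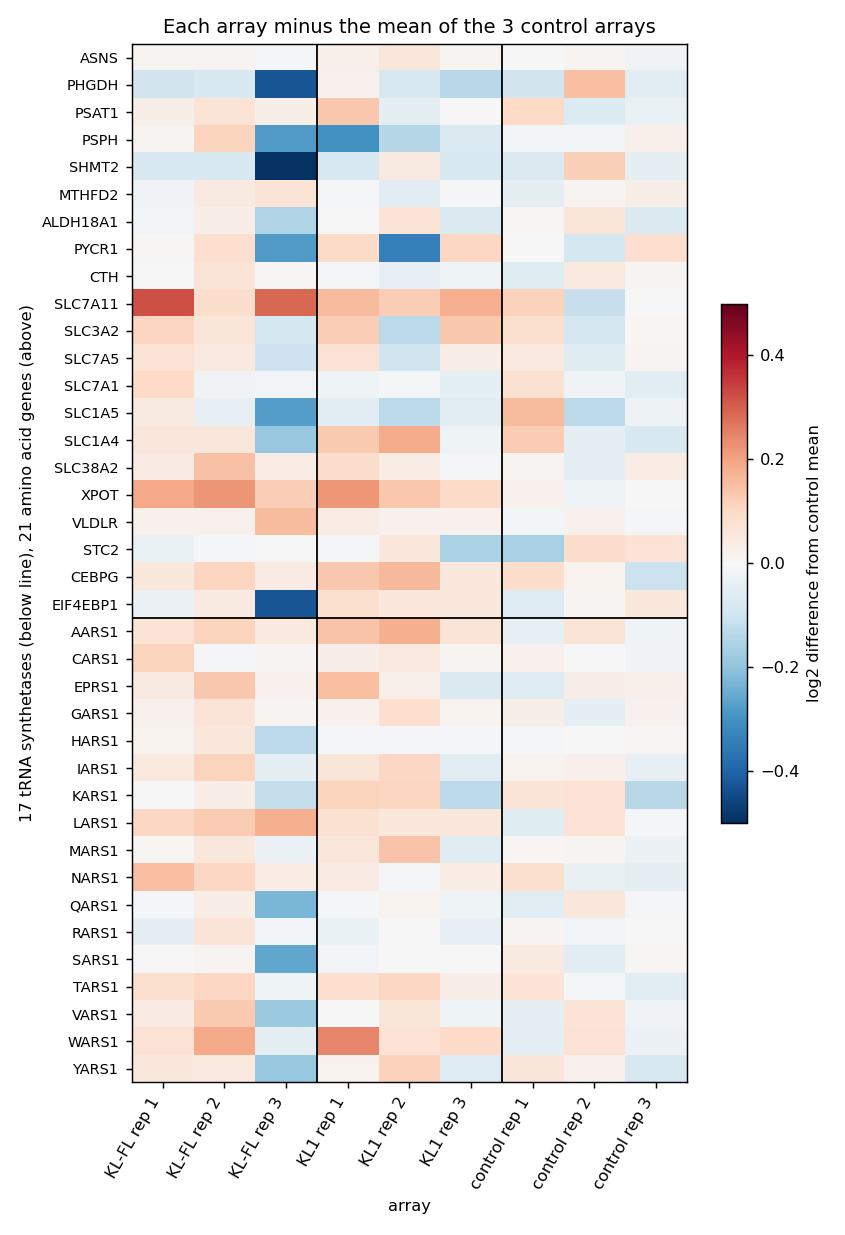
Log2 difference of each array (columns, KL-FL, then KL1, then control) from the mean of the 3 control arrays, for the 38 members (rows, amino acid genes above the line and synthetases below it); red is higher and blue lower. The KL-FL replicate 3 column holds the darkest blue cells, in SHMT2, PHGDH and EIF4EBP1, and XPOT is red on all 6 klotho arrays.

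KL-FL replicate 3 gave the lowest value of the 9 arrays in 12 of the 38 members, 7 amino acid genes and 5 synthetases, and in 23.9% of all genes. On that array the members' median difference from the control mean was -0.025, and it was 0.036 and 0.058 on KL-FL replicates 1 and 2. Without it 35 of 38 members were higher with KL-FL than in control (92.1%), against 64.1% of all genes, and 12 of the 15 members lower with it were higher without it. All 17 synthetases were then higher, with a median of 0.051, and the amino acid genes had a median of 0.041, against 0.018 over all genes. Leaving out another KL-FL array moved the members the other way: 20 of 38 were higher without KL-FL replicate 1, against 56.1% of all genes, and 20 of 38 without KL-FL replicate 2, against 50.2% of all genes. Without KL-FL replicate 3, again 0 members passed the limma test, with XPOT at 0.20 (adjusted p = 0.301), SLC7A11 at 0.21 (adjusted p = 0.571), LARS1 at 0.12 and NARS1 at 0.13 (adjusted p = 0.527 for each). With limma's array weights, which give less weight to arrays that fit the group means poorly, 3 members passed in KL-FL: XPOT at 0.19 (adjusted p = 0.0247), SLC7A11 at 0.32 (adjusted p = 0.0359) and NARS1 at 0.15 (adjusted p = 0.0438). These were 3 of 38 members, where 2.17% of all genes passed as higher. The weights called 523 genes in this comparison, where the main fit called 1. The weighted differences of the 3 members lay near those of KL-FL replicate 1 alone. On that array SLC7A11 had 8.753, XPOT 8.454 and NARS1 9.503, against control means of 8.431, 8.264 and 9.351. The 3 calls may thus rest largely on that 1 array. What set KL-FL replicate 3 apart was not tested.

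Between KL-FL and KL1, 0 members passed the limma test and 0 of all genes did (0%), and at an unadjusted p under 0.05 there were 0 members, against 5.05% of all genes. The differences ran from -0.20 to 0.12, with 17 members higher and 21 lower, a median of -0.0092 against 0.0058 over all genes, and adjusted p from 0.855 to 1.0. The furthest from 0 were EIF4EBP1 at -0.20 (95% interval -0.44 to 0.037), SHMT2 at -0.18 (-0.43 to 0.066) and PHGDH at -0.13 (-0.36 to 0.094), the genes low on KL-FL replicate 3. LARS1 and CTH had no overlap between the groups on the higher side and EIF4EBP1 had none on the lower side, where 4.67% and 2.21% of all genes had none. LARS1 had 8.31 to 8.38 in KL-FL against 8.26 to 8.28 in KL1, a difference of 0.075 (95% interval -0.013 to 0.16). XPOT differed by 0.030 (-0.061 to 0.12) and SLC7A11 by 0.080 (-0.084 to 0.24).

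Set by promoter, the 13 members with a CARE core had a median difference of 0.033 for KL-FL and 0.041 for KL1, with 11 of 13 higher in each comparison. The 17 members with no match in the window had medians of 0.0038 and 0.00025, with 10 and 9 higher. All 495 genes with the core had medians of 0.019 and 0.0087, with 64.6% and 59.0% higher, where genes with any window had 57.2% and 51.7%. The members with the core lay between -0.090 and 0.098 for KL-FL and between -0.081 and 0.13 for KL1. The highest members without it were at 0.18 and 0.15, both XPOT. No test was run on this split.

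**Figure D4:**
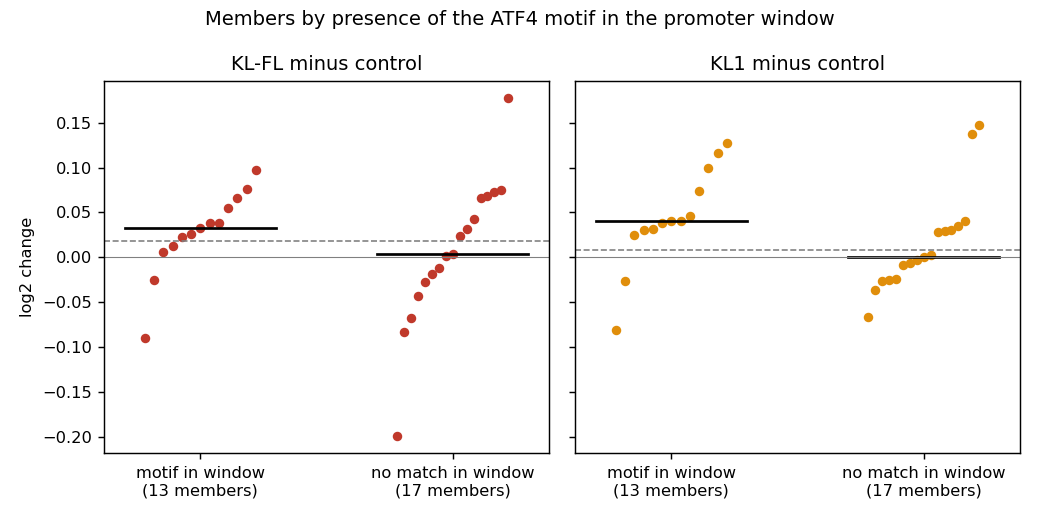
Log2 change of members with and without the CARE core in the promoter window (points; black lines are medians), for KL-FL minus control and KL1 minus control; the dashed grey line is the median of all 495 genes with the core. The medians with the core are 0.033 and 0.041, and the points of both sets overlap.

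Among 22 other ATF4 and stress response genes listed beside the members, 21 were measured, and 1 passed the limma test, DDIT3, in each comparison with control. With the replicate number as a block, DDIT3 did not pass (limma adjusted p = 0.226 for KL-FL and 0.0611 for KL1). Whether that number pairs KL1 with control is not known. At an unadjusted p under 0.05 stood ATF3, a stress transcription factor, at 0.22 for KL-FL and 0.32 for KL1 (adjusted p = 0.550 and 0.478), and SESN2, which restrains mTORC1 when leucine is low, at 0.19 and 0.16 (adjusted p = 0.688 and 0.927). CEBPB, another C/EBP factor, differed by -0.14 for KL-FL (adjusted p = 0.688). The list's medians were 0.016 for KL-FL and 0.0038 for KL1. Of 15 genes for the eIF2 kinases, eIF2 and eIF2B, 0 passed, and EIF2AK3, which encodes PERK, differed by 0.13 and EIF2AK1, the haem-regulated kinase, by -0.092 with KL-FL (adjusted p = 0.688 for each).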

How the data were processed

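Total RNA (100 ng) from 9 samples was amplified and labelled for whole-transcript arrays (labels' protocols). The log2 values of 33297 probe sets were used as the authors deposited them. Partek 6.6 is named in the submitters' processing notes, without its settings: how the probes were corrected, normalized and summarised is not given in the sources used here. That the scale is log2 was read from the values. The number of arrays limits the precision.

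Probe sets were named through the platform annotation: 19181 named 1 gene, 2055 several and 12061 were unnamed here. Gene IDs changed 0 symbols against RefSeq and 38 had no match. The brightest probe set stood for each gene. All 3 groups entered 1 model in limma 3.58.1 under R 4.3.3 (eBayes; 6 residual degrees of freedom), with two-sided p-values adjusted by Benjamini-Hochberg over 17958 genes, and was tested on simulated data. Figures used matplotlib 3.10.9. Members and lists were chosen with earlier results of these data known. All 38 members could be named; array values are given for those with an unadjusted p under 0.05 and for ASNS, PSAT1, SLC7A11 and XPOT, and for others singled out after their values were seen (PHGDH, PSPH, SHMT2, EIF4EBP1, CEBPG, WARS1, NARS1, HARS1). Beside the members, ATF4 and DDIT3 were named, and genes of the lists with an unadjusted p under 0.05 in a comparison with control. Same-numbered arrays of KL1 and control deviated together (correlations 0.113 to 0.322), those of KL-FL and control less (at most 0.0974). Arrays with unlike numbers were not compared, so these values cannot settle whether the replicate number pairs KL1 with control.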

Additional observations from a re-analysis of the deposited data

How the results depend on the processing

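The count of members called stayed at 0 in each of the 3 comparisons under quantile normalization, median centring, the filter below the 50th percentile, the mean of probe sets, every probe set, only the 6 arrays compared, the replicate block and each array left out. The exception was array weights, which called 3 members in KL-FL minus control, and 523 of all genes. With the replicate number as a block 0 members were called, 6 had an unadjusted p under 0.05 in KL-FL minus control (3 without it) and 4 in KL1 minus control (2 without it), and DDIT3 had adjusted p = 0.226 for KL-FL and 0.0611 for KL1. DDIT3 lost its call without any 1 control array (adjusted p from 0.268 to 0.435 for KL-FL and 0.0688 to 0.108 for KL1), without KL-FL replicate 1 (0.205) or any 1 KL1 array (0.0744 to 0.183) for KL-FL, and without any 1 KL1 array (0.0723 to 0.0975) for KL1. It lost it with every probe set tested (0.220 and 0.0519) and, for KL-FL, with only the 6 arrays compared (0.472). Its log2 change stayed between 0.57 and 0.69 for KL-FL and between 0.77 and 0.80 for KL1.

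With 1 array left out at a time, the median of the amino acid genes lay between -0.015 (KL-FL replicate 1 left out) and 0.041 (KL-FL replicate 3 left out) for KL-FL, between -0.016 and 0.031 (without KL1 replicate 1 and 2) for KL1, and between -0.029 and 0.040 for KL-FL minus KL1. The median of the synthetases for KL-FL lay between 0.0015 (KL-FL replicate 2 left out) and 0.051 (replicate 3 left out), and for KL1 between 0.0058 (without KL1 replicate 2) and 0.0635 (without KL1 replicate 3). The sign of some small single-gene values turned. ASNS with KL-FL was at -0.0011 under median centring and between -0.0021 and 0.013 with 1 array left out. PSPH with KL-FL was at 0.0073 with array weights and between -0.14 and 0.062 with 1 array left out. EIF4EBP1 with KL-FL lay between -0.23 and 0.0078, and with KL1 PHGDH lay between -0.11 and 0.010, PSAT1 between -0.023 and 0.080, and SHMT2 between -0.076 and 0.023. The cause was not tested. Under the alternatives that kept all arrays, 254 single-gene values kept their sign and side of the threshold, 2 changed sign, 3 passed newly and 5, all of DDIT3, no longer passed. This count took in only DDIT3 and the members with array values above, HARS1 apart. Among the other members, array weights turned further signs with KL-FL. Examples were SLC1A5, from -0.090 to 0.048, and MTHFD2, from 0.031 to -0.016.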

Other observations

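Of 17 mitochondrial aminoacyl-tRNA synthetases, which charge tRNA for translation inside the organelle, 15 were measured and 0 passed the limma test (with KL-FL 1 had an unadjusted p under 0.05, and with KL1 0). Their medians were 0.014 for KL-FL, with 9 higher, and -0.015 for KL1, with 6 higher. The member of that list with an unadjusted p under 0.05 was RARS2, with 7.19, 7.26 and 7.13 in KL-FL and 7.20, 7.04 and 7.10 in KL1, against 7.04, 7.07 and 7.02 in control. Its difference was 0.15 for KL-FL (adjusted p = 0.688) and 0.070 for KL1 (adjusted p = 0.927). Of the remaining cytosolic synthetase subunits and scaffold proteins 3 of 6 were measured, with differences from -0.034 to -0.0033 for KL-FL and from -0.012 to 0.051 for KL1. Other one-carbon and serine genes, 7 measured of 9, had medians of 0.048 and -0.022, and other proline, aspartate and glutamate genes, 7 of 10, had medians of 0.019 and -0.019, with 0 called in any comparison in limma.

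Many deposited values were exactly equal on several arrays. Of the 38 members 20 had 2 or more arrays with the same value to the last digit, as had 68.5% of all genes. SHMT2 read 9.66696 on KL-FL replicates 1 and 2 and KL1 replicates 1 and 3, ASNS read 7.33323 on 4 arrays of all 3 groups, and VLDLR read 3.51596 on 5 arrays. HARS1 read 8.98492 on all 3 KL1 arrays, and 2.77% of all genes were equal on all 3 KL1 arrays. The step that produced them was not tested. The 2 probe sets naming VARS1 had the same mean (8.796) and the same differences in each comparison, so they cannot be taken as separate measurements. Those of SLC1A5 differed, at -0.090 for the one used and 0.018 for the dimmer one with KL-FL.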
